A study of Mus musculus with 12 samples.

Results

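Hsf1, the transcription factor that switches on the heat shock response, and 9 cytosolic chaperone and co-chaperone genes were followed across mouse embryonic stem cells that differ in Tet2. The genes were taken by symbol from the table of gene counts: Hsf1, Hspa1a, Hspa1b, Hspa8, Hsph1, Hsp90aa1, Hsp90ab1, Dnajb1, Hspb1 and Bag3. All 10 were found among the 35976 gene symbols of the table, and all 10 were among the 16014 genes that passed the filter on low counts. The study asked how the transcriptome responds to TET2 carrying N1300T, an amino acid change in a dioxygenase that oxidises 5-methylcytosine, against cells with unchanged Tet2 and cells without it. The libraries were made from total RNA of the V6.5 line of mouse embryonic stem cells and read from both ends. The 12 libraries formed 4 groups of 3, lettered A, B and C, and by the genotype labels every group lacked Tet1, the controls included. The control group, Tet1KO, had no stated change in Tet2. The second group was Tet1 Tet2 DKO, called DKO here and numbered 41, in which Tet2 was also knocked out. The other two groups shared the genotype label Tet1KO Tet2 N1300T and were numbered 49 and 81, and each of these numbered sets is called a preparation here. Cells of every group grew on gelatin in serum medium with LIF, the GSK3 inhibitor CHIR99021 and the MEK inhibitor PD0325901, and the labels name neither feeder cells nor another treatment. The sources used here do not give what the numbers stand for or whether the libraries of a group came from separate cultures, so a p-value here reflects spread between libraries that may be technical.

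In unstressed cells HSF1 is held inactive by chaperones. When unfolded proteins accumulate it forms trimers, binds arrays of the short unit nGAAn in promoters and raises transcription of chaperone genes. HSP70 proteins bind exposed hydrophobic stretches of clients in a cycle driven by ATP, in which J-domain proteins such as Dnajb1 deliver clients and stimulate hydrolysis, and HSP110 proteins such as Hsph1 and BAG proteins such as Bag3 exchange the nucleotide. HSP90 proteins act later on kinases, steroid receptors and other clients, and small heat shock proteins such as Hspb1 hold unfolding proteins without ATP. Embryonic stem cells are known for high constitutive levels of several chaperones.

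Promoter windows are shown for the 3 members whose counts rose in both genotypes and for Hspb1, which did not pass the test, so that the letters matching heat shock motifs can be read in each. Windows of 300 bases, from 250 before to 50 after an annotated start, were taken from RefSeq in build GRCm38.p6 (mm10). These windows were matched for 6 of the 10 members, giving 8 windows, with 2 each for Hsph1 and Dnajb1. Each sequence runs 5′ to 3′ on the gene's own strand, and capitals mark matches to the heat shock motifs searched: GAANNTTC and TTCNNGAA, each its own reverse complement, and a longer motif of 3 units, GAANNTTC followed directly by NNGAA or, as its reverse complement, TTCNNGAA followed directly by NNTTC, which contains both shorter ones.
Hspa1a, chr17:34972107-34972406, minus strand: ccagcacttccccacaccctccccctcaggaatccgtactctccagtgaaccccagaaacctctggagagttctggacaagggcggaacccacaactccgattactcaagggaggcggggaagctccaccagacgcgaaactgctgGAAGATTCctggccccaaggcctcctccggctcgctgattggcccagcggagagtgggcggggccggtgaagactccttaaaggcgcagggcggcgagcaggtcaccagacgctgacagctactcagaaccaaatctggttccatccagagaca
Hspa1b, chr17:34959189-34959488, minus strand: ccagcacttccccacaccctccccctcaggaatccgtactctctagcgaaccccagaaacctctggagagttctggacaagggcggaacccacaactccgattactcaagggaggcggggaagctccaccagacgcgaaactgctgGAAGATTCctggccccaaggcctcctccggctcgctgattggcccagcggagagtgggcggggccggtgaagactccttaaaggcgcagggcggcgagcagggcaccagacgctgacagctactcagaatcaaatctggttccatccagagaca
Hsph1, first of its windows, chr5:149636287-149636586, minus strand: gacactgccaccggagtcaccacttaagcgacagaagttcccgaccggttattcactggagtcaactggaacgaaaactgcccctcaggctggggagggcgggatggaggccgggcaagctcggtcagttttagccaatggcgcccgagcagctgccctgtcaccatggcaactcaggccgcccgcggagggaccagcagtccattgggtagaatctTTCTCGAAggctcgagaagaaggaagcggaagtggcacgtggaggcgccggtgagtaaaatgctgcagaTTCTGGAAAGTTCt
Hspb1, chr5:135887669-135887968, plus strand: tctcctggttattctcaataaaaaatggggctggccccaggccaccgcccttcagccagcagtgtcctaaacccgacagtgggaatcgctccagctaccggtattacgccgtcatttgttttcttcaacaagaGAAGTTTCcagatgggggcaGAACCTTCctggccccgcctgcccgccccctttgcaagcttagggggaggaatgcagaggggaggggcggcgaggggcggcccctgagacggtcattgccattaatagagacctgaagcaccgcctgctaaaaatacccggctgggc

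The windows of Hspa1a and Hspa1b had the same letter at 296 of 300 positions, and in both the match GAAGATTC began 104 bases before the start. Hsph1 held TTCTCGAA from position -33 and the 3-unit match TTCTGGAAAGTTC from position 37 after its first annotated start, and both matches lie in its other window as well, from -54 and 16. Hspb1 held GAAGTTTC from -117 and GAACCTTC from -97. Bag3, the HSP70 exchange factor that also links clients to autophagy, held GAAGTTTC from position 43, and neither window of Dnajb1 held any of these motifs. Among all 32851 windows of the same length in the RefSeq table, 7.86% held GAANNTTC, 8.52% held TTCNNGAA, 15.1% held either and 0.603% held the 3-unit motif. CCAAT or ATTGG, a general promoter element, was found in the windows of Hspa1a, Hspa1b, Hsph1 and Dnajb1 and in 37.4% of all windows. A match describes letters in a window, and binding was not measured in these libraries.

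**Figure D1:**
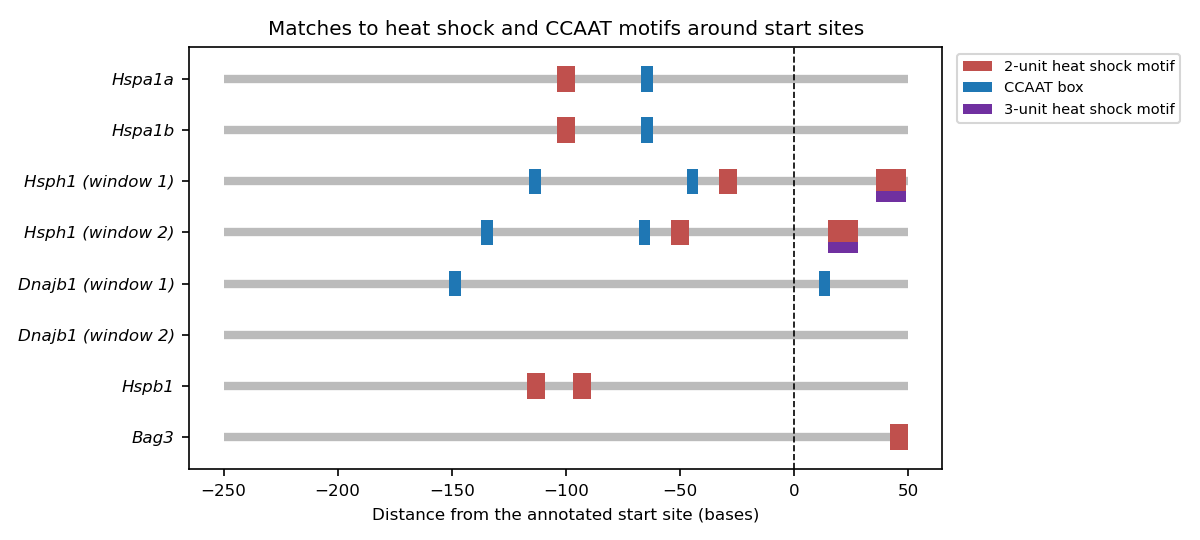
Matches to the heat shock motifs and to CCAAT or ATTGG in the 8 promoter windows of 6 members, with distance from the annotated start site in bases on the horizontal axis and the start at the dashed line. The 3-unit match appears in the windows of Hsph1, from position 37 or 16, and the windows of Dnajb1 hold no heat shock motif.

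Library totals ran from 31515011 (N1300T 49 C) to 57054862 (DKO A) counts, and the 10 members took 1.42% to 1.65% of them. Levels are given as CPM (counts scaled to the library total), corrected with TMM factors that ran from 0.979 to 1.02. Tet2 lay at 142.2 to 180.7 CPM in Tet1KO, 92.01 to 97.92 in DKO, 122.9 to 144.6 in N1300T 49 and 129.6 to 155.5 in N1300T 81, and Tet1 at 131.2 to 180.2 CPM in every group. The labels do not say which exons were removed, so counts over whole genes do not check either knockout. All 10 markers of embryonic stem cells passed the filter, and their summed level was 5735 to 5924 CPM in Tet1KO, 5296 to 5559 in DKO and 5688 to 5898 over the N1300T libraries. Of 12 fibroblast markers 7 passed the filter. The sum of all 12 was 17.99 to 20.03 CPM in Tet1KO, 21.63 to 23.77 in DKO and 19.28 to 24.21 in N1300T. Against Tet1KO, 2 of the 7 were higher and 1 lower in N1300T at an adjusted p under 0.05 in edgeR's test. Of all genes 7.69% were higher and 8.04% lower there. In DKO 2 of the 7 were higher and none lower, where 7.86% and 7.12% of all genes were. Tet1KO and DKO are each 1 set of 3 libraries, so genotype cannot be told apart from other properties of those sets.

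Levels of different genes were compared per kilobase of exon, with exon lengths from GENCODE. Over the 12 libraries Hsp90ab1, the constitutive cytosolic HSP90, was highest at a mean of 2803 CPM per kilobase. Hspa8, the constitutive HSP70 (mean 1320, range 1229 to 1473), and Hsp90aa1, the inducible HSP90 (mean 1121, range 961.5 to 1358), followed and their ranges overlapped. Hspb1 stood at a mean of 322.1, Hsph1 at 118.2 and Bag3 at 35.97 CPM per kilobase. The ranges of Hsf1 (23.22 to 26.97) and Dnajb1 (20.26 to 23.68) overlapped. The stress-inducible HSP70 genes were lowest, Hspa1b at a mean of 1.746 and Hspa1a at 0.6297 CPM per kilobase. Within groups the coefficient of variation ran from 3.03% for Hsp90ab1 to 15.7% for Hspa1a.

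**Figure D2:**
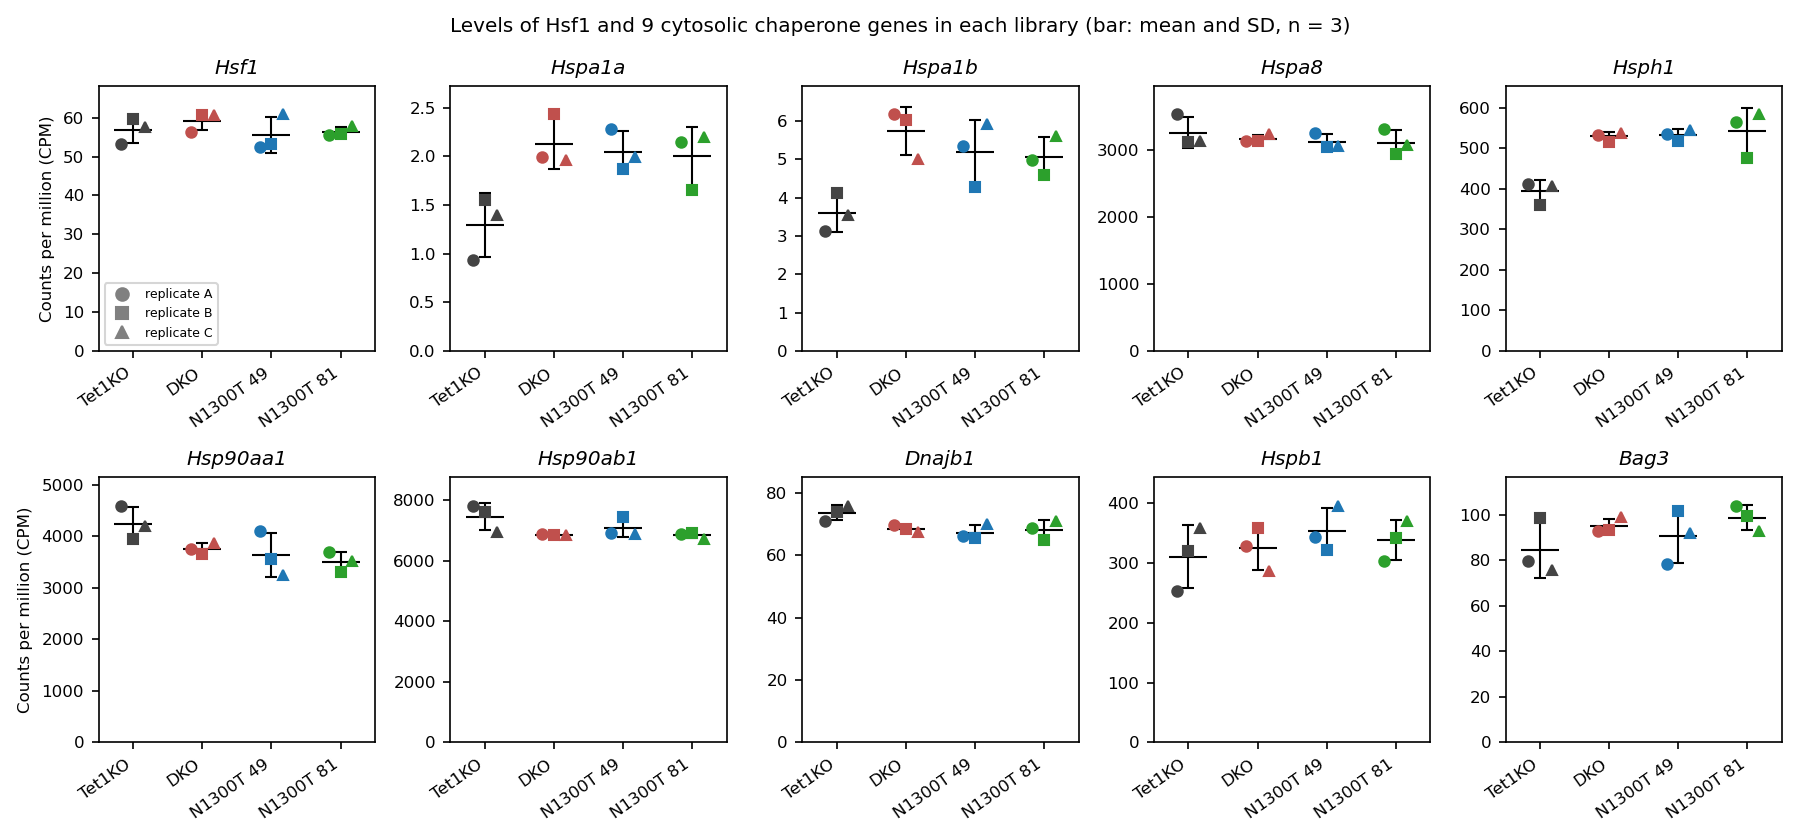
CPM of the 10 members in each library, 1 panel per gene with its own vertical axis from 0, by group on the horizontal axis, with points for replicates A, B and C, the mean as a line and the SD as a bar (n = 3). The 3 Tet1KO libraries lie below all 9 others for Hspa1a, Hspa1b and Hsph1, whereas Hsf1 overlaps between all groups. Of all genes, 17.7% separated upward from Tet1KO in DKO and 7.9% in N1300T, and the share that did so in both was not counted.

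The first comparison asked what loss of Tet2 on top of Tet1 goes with. Of the 10 members, 3 were higher in DKO than in Tet1KO, the inducible HSP70 genes Hspa1a and Hspa1b and the HSP110 gene Hsph1, and none was lower. A gene was called at an adjusted p under 0.05 in edgeR's quasi-likelihood test, with Benjamini-Hochberg adjustment over all 16014 genes. Of all genes 15% were called in this comparison, 7.86% higher and 7.12% lower (1259 and 1140 genes, or 1522 and 865 when scaled by library size alone). In bulk RNA a change in the share of cells that express a gene and a change in RNA per cell cannot be told apart.

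Hsph1 (chromosome 5, 149616843 to 149636498), which exchanges nucleotide on HSP70 and takes part in dissolving aggregates, stood at 410.7, 360.7 and 407.6 CPM in Tet1KO A, B and C and at 532.7, 515.9 and 538.3 in DKO. All 3 DKO libraries lay above all 3 Tet1KO libraries, as was so for 17.7% of all genes. The level was 34.6% higher in DKO, a log2 fold change of 0.43 ± 0.0712 (SE), with an adjusted p of 0.000568 in edgeR's test. Hsph1 was called in all 21 alternative settings run for this comparison, with log2 fold changes from 0.37 to 0.47.

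Hspa1b (chromosome 17, 34956429 to 34959238) encodes an inducible HSP70 with little transcript in unstressed cells. It had 101, 172 and 149 counts in Tet1KO and 359, 248 and 286 in DKO, or 3.132, 4.115 and 3.536 CPM against 6.173, 6.035 and 5.016. The groups did not overlap, and the level was 59% higher in DKO (log2 fold change 0.67 ± 0.152, adjusted p = 0.00632 in edgeR's test), a call kept in all 21 settings. Hspa1a (chromosome 17, 34969359 to 34972156), its neighbour and near copy, had only 30, 65 and 59 counts in Tet1KO and 116, 100 and 112 in DKO. Its CPM of 0.9302, 1.555 and 1.4 against 1.995, 2.433 and 1.964 did not overlap either. The log2 fold change was 0.70 ± 0.211 (62% higher, adjusted p = 0.0343 in edgeR's test). This call was lost in 5 of 21 settings, each of which left out 1 library: DKO A, B or C, or Tet1KO A or C, with the largest adjusted p, 0.156, without Tet1KO A.

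The split of reads between Hspa1a and Hspa1b is uncertain. Their coding sequences were identical at 1918 of 1929 aligned positions (99.4%), and 47.1% of the 100-base windows of the Hspa1a transcript occur exactly in that of Hspa1b. The sources used here do not give how such reads were assigned. With the counts of both genes summed, the log2 fold change against Tet1KO was 0.68 ± 0.143 in DKO (adjusted p = 0.00363 in edgeR's test). In N1300T it was 0.54 ± 0.128 (adjusted p = 0.00749). The sum is among the alternative settings tallied for each gene, where its call stands for both. The counts of members called take the genes as separate. Hspa1a also shares 2225 bases with Gm20481 on the opposite strand, a gene with no symbol in the table, and whether counting used strand is not given.

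The second comparison set the mean of both N1300T preparations against the same Tet1KO libraries, so the 2 comparisons share their controls and are not independent. Of the 10 members, 3 were higher in N1300T, again Hsph1, Hspa1b and Hspa1a, and Hsp90aa1 was lower. Of all genes 15.7% were called in this comparison, 7.69% higher and 8.04% lower. Hsph1 stood at 536, 517.3 and 544.8 CPM in N1300T 49 and at 564.7, 475.8 and 583.2 in N1300T 81. Each of these 6 libraries exceeded the highest Tet1KO library, at 410.7 CPM, a separation upward found for 7.9% of all genes. The log2 fold change was 0.45 ± 0.0628, or 36.6% higher, with an adjusted p of 9.55e-05 in edgeR's test, and the call held in all 23 settings. Each preparation taken alone against Tet1KO gave the call too, at 0.44 (adjusted p = 0.000607) for N1300T 49 and 0.46 (adjusted p = 0.000365) for N1300T 81. Of all genes 10.9% were called for N1300T 49 and 12.2% for N1300T 81.

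Hspa1b stood at 5.353, 4.278 and 5.915 CPM in N1300T 49 and at 4.975, 4.583 and 5.605 in N1300T 81, against at most 4.115 in Tet1KO. The log2 fold change was 0.50 ± 0.136 (41.7% higher, adjusted p = 0.0171 in edgeR's test). Both preparations alone passed, at 0.52 (adjusted p = 0.0385) and 0.48 (adjusted p = 0.0469). The call was lost without Tet1KO A (0.41, adjusted p = 0.114) and without Tet1KO C (0.49, adjusted p = 0.0534). Hspa1a stood at 2.28, 1.868 and 1.993 CPM in N1300T 49 and at 2.152, 1.653 and 2.198 in N1300T 81, again above all Tet1KO libraries. Its log2 fold change of 0.63 ± 0.19 had an adjusted p of 0.0316 and passed in 15 of 23 settings. It did not pass in either preparation alone (adjusted p = 0.063 for 49 and 0.0712 for 81), in a fit of only the groups compared, or without Tet1KO A or C, N1300T 49 A, or N1300T 81 A or C. Without Tet1KO A, the library lowest in both HSP70 genes, it was 0.45 (adjusted p = 0.189).

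Hsp90aa1 (chromosome 12, 110691036 to 110696395), the inducible HSP90, fell in N1300T. It stood at 4593, 3954 and 4193 CPM in Tet1KO, at 4107, 3565 and 3251 in N1300T 49 and at 3698, 3306 and 3526 in N1300T 81. The groups overlapped at N1300T 49 A, which lay above Tet1KO B. The log2 fold change was -0.25 ± 0.0663, 15.8% lower, with an adjusted p of 0.0162 in edgeR's test. N1300T 81 alone passed at -0.27 (adjusted p = 0.027) and N1300T 49 alone did not at -0.22 (adjusted p = 0.0766), and the call was also lost without Tet1KO A, at -0.19 (adjusted p = 0.132). In DKO Hsp90aa1 stood at 3756, 3650 and 3880 CPM, below all Tet1KO libraries, as was so for 17.7% of all genes. It did not pass there (-0.17, adjusted p = 0.142 in edgeR's test), except in the fit without a filter on low counts (adjusted p = 0.03).

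Without Tet1KO A, Hsph1 was the only member of the 10 that was called in N1300T against Tet1KO, and Hsph1 and Hspa1b were in DKO. The summed fibroblast markers were also lower in every Tet1KO library than in every DKO library. The summed markers of embryonic stem cells were higher in every Tet1KO library (5735 to 5924 CPM against 5296 to 5559 in DKO). Of those 10 markers 2 were called lower in DKO and none higher, where 7.12% and 7.86% of all genes were. Library totals were 32951414 to 42200418 counts in Tet1KO against 40675081 to 57054862 in DKO. The part of any of these in the results was not tested. In a fit with all counts halved, which allows for both mates of a pair being counted, the same 4 and 3 members were called.

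**Figure D3:**
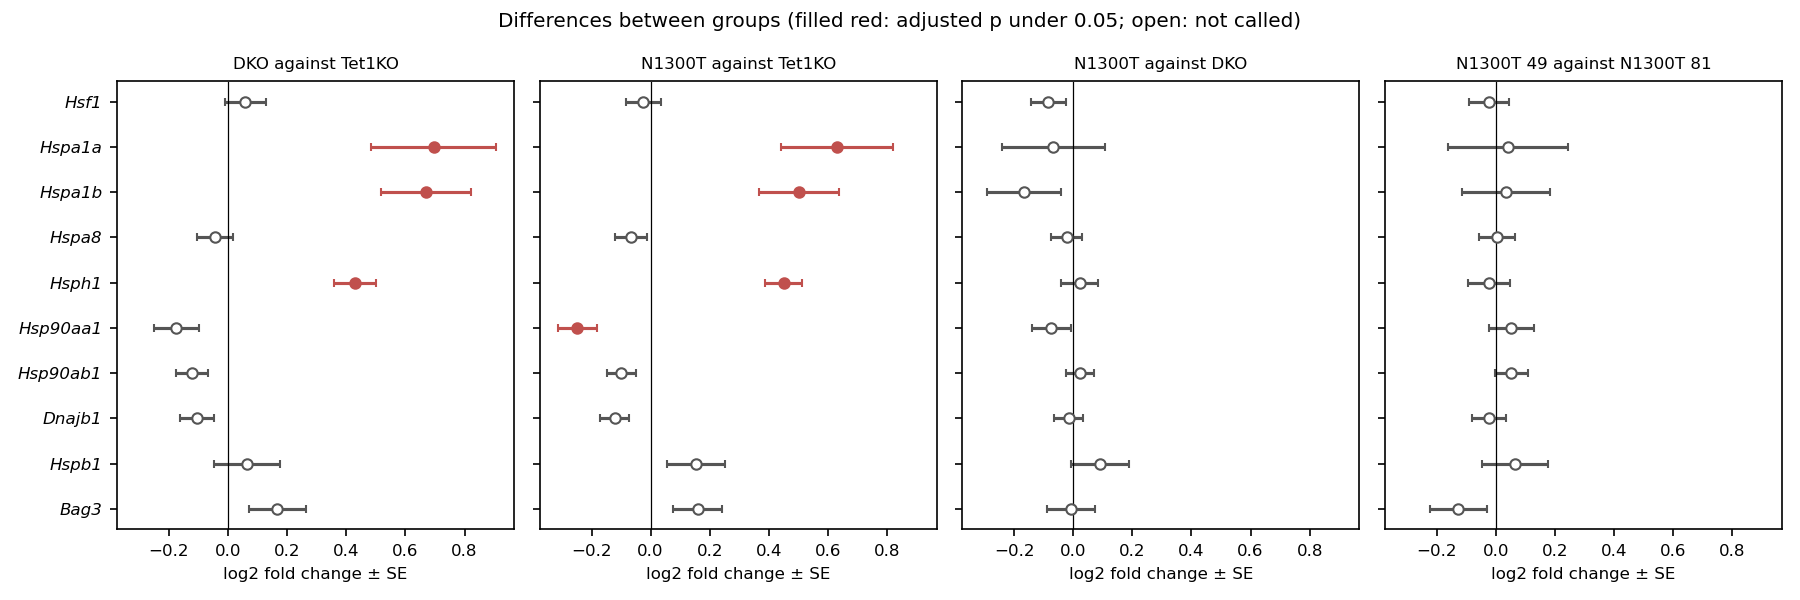
Log2 fold change ± SE of each member in the 4 comparisons, from edgeR's fit of 12 libraries, with filled red points for an adjusted p under 0.05 and open points for the rest. Hsph1, Hspa1b and Hspa1a are filled in both comparisons with Tet1KO and Hsp90aa1 in N1300T against Tet1KO, and no point is filled between N1300T and DKO or between preparations.

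The remaining members did not pass in either comparison with Tet1KO. Hsf1 (chromosome 15, 76477362 to 76501155) stood at 53.24, 59.72 and 57.67 CPM in Tet1KO, 56.44, 60.79 and 60.62 in DKO, 52.42, 53.29 and 60.89 in N1300T 49 and 55.54, 55.8 and 57.79 in N1300T 81. The libraries of all groups overlapped. Its log2 fold changes of 0.06 in DKO (95% interval -0.09 to 0.20) and -0.03 in N1300T (-0.15 to 0.10) did not pass. HSF1 is switched on at the protein level, which transcript counts do not measure.

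Of the constitutive chaperones, Hspa8 (chromosome 9, 40801276 to 40805202) stood at 3527, 3116 and 3126 CPM in Tet1KO, 3126, 3123 and 3228 in DKO and 2942 to 3308 over the N1300T libraries, with the groups overlapping and log2 fold changes of -0.04 and -0.07. Hsp90ab1 (chromosome 17, 45567778 to 45573261) stood at 7815, 7609 and 6960 CPM in Tet1KO and at 6869, 6860 and 6837 in DKO. The groups did not overlap, as 17.7% of all genes did not in that direction, and the difference of -0.12 on the log2 scale (adjusted p = 0.152) did not pass. N1300T libraries ran from 6730 to 7460 CPM, with a log2 fold change of -0.10 against Tet1KO (adjusted p = 0.179). Dnajb1 (chromosome 8, 83608175 to 83612653), which hands clients to HSP70, is counted among the heat-inducible members here. It stood at 71.04, 73.95 and 75.87 CPM in Tet1KO and at 69.64, 68.38 and 67.33 in DKO. Its CPM was 66.24, 65.42 and 69.91 in N1300T 49 and 68.92, 64.91 and 70.93 in N1300T 81. The DKO and N1300T libraries all lay below Tet1KO, N1300T 81 C and Tet1KO A being nearest to each other, with log2 fold changes of -0.11 (adjusted p = 0.239) and -0.12 (adjusted p = 0.111). Groups did not overlap in that direction for 8.09% of all genes in N1300T against Tet1KO.

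Hspb1 (chromosome 5, 135887919 to 135889563), a small heat shock protein, had a coefficient of variation within groups of 12.2%. It stood at 253.5, 320.8 and 358.6 CPM in Tet1KO, 329, 358.8 and 287.4 in DKO, 343.7, 322.3 and 395.7 in N1300T 49 and 303, 342.3 and 370.2 in N1300T 81. The groups overlapped, and neither difference from Tet1KO passed (0.06 and 0.15 on the log2 scale, adjusted p = 0.762 and 0.317). Bag3 (chromosome 7, 128523583 to 128546981) stood at 79.69, 98.43 and 75.51 CPM in Tet1KO, 92.91, 93.13 and 98.73 in DKO, 78.14, 101.5 and 91.77 in N1300T 49 and 103.8, 99.45 and 92.83 in N1300T 81. Tet1KO B lay apart from the other two Tet1KO libraries. The log2 fold changes of 0.17 in DKO (adjusted p = 0.265) and 0.16 in N1300T (adjusted p = 0.214) passed only without that library, at 0.29 in each (adjusted p = 0.0427 and 0.0259). Against Tet1KO, N1300T 81 alone gave 0.22 (adjusted p = 0.142), and 0.23 (adjusted p = 0.0248) in a fit of the Tet1KO and N1300T libraries with the replicate letter as a block, an alternative chosen after seeing the data.

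N1300T was also set directly against DKO, with 3.73% of all genes called, 273 higher and 324 lower (194 and 473 when scaled by library size alone). None of the 10 members was called by edgeR's test, none had an unadjusted p under 0.05, and DESeq2 called none. Log2 fold changes ran from -0.17 in Hspa1b (95% interval -0.43 to 0.10) to 0.09 in Hspb1 (-0.11 to 0.29). The interval for Hsph1 ran from -0.11 to 0.15 around 0.02, that for Hsp90aa1 from -0.21 to 0.07 around -0.07, and that for Hspa1a, the widest, from -0.43 to 0.30 around -0.07. Between preparations 49 and 81, where 0.362% of all genes were called, none of the 10 was called either. Again none had an unadjusted p under 0.05 and DESeq2 called none. Their log2 fold changes ran from -0.13 in Bag3 to 0.06 in Hspb1, with intervals between -0.39 and 0.47.

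The members did not vary together as 1 block over the 12 libraries. Hspa1a and Hspa1b had a Pearson r of 0.894 in log2 CPM, and 0.68 in deviations from their group means, with shared reads as noted. Hsph1 had an r of 0.764 with Hspa1a and 0.768 with Hspa1b over libraries, but 0.0524 and 0.0994 in deviations from group means. Hspa8 and Hsp90aa1, which were both high in Tet1KO A, had an r of 0.793 over libraries and 0.815 in deviations. Hsf1 had an r over libraries from -0.361 with Hsp90ab1 to 0.386 with Hspb1 among the other members, with -0.00916 for Hsph1. In deviations from group means its r ran from -0.741 with Hsp90aa1 to 0.626 with Hspb1. These values describe 12 libraries that share group means and scaling. A mean z-score was taken over 7 heat-inducible members, Hspa1a, Hspa1b, Hsph1, Hsp90aa1, Dnajb1, Hspb1 and Bag3. It averages genes that did not share 1 pattern, with r between pairs from -0.654 (Hsp90aa1 and Bag3) to 0.894 (Hspa1a and Hspa1b). Genes most like this mean, among 11709 genes compared over 12 libraries, were Pmepa1 (r = 0.919), Akt1s1 (0.914), Phlda3 (0.913), Fam83d (0.912) and Lrrc8a (0.912). Those most like Hsf1 were Slx4 (0.903), Cln3 (0.877), Rela (0.872), Dclk2 (0.866) and Reep4 (0.863). Picking the highest of 11709 values over 12 libraries favours high r, and whether these genes share a pattern with the members was not tested.

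**Figure D4:**
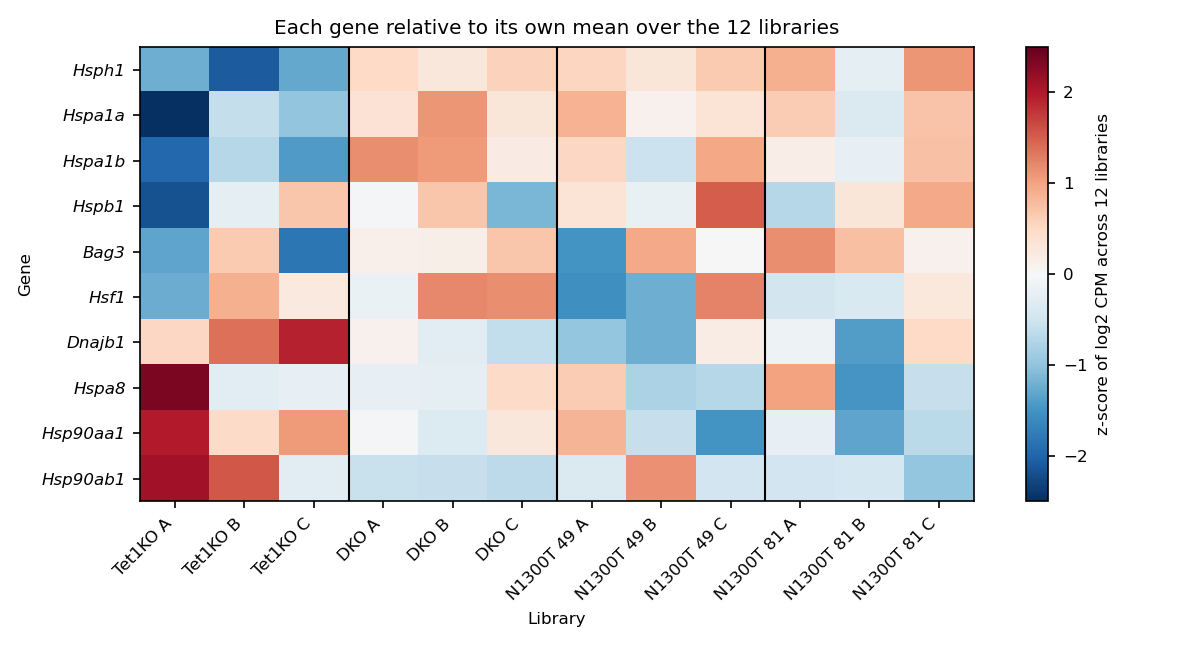
z-score of log2 CPM of each member (vertical axis) in each of the 12 libraries (horizontal axis), relative to the gene's own mean over the libraries. Hspa1a in Tet1KO A is the lowest value of its gene at -2.51, and the 3 Tet1KO libraries are below the mean for Hspa1a, Hspa1b and Hsph1.

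Other genes of proteostasis were counted from 10 lists holding 129 genes, of which 123 passed the filter. Over the 10 lists 18 of 123 genes (14.6%) were called in DKO against Tet1KO, where 15% of all genes were, and 20 of 123 (16.3%) in N1300T against Tet1KO, where 15.7% of all genes were, so the lists as a whole lay near the background. In DKO against Tet1KO the median log2 fold change over all genes was -0.0055, and that of the 10 members 0.06. The list of HSF relatives and regulators had 3 of 8 tested genes higher, where 7.86% of all genes were, and none lower (median 0.36). Ier5, an immediate early gene whose product is known to activate HSF1, stood at 3.504, 4.331 and 4.248 CPM in Tet1KO and at 7.945, 8.955 and 7.174 in DKO (log2 fold change 0.99 ± 0.138, adjusted p = 0.000122 in edgeR's test). Hsf5, an HSF relative of the male germline, rose by 1.00 ± 0.195 on the log2 scale (adjusted p = 0.00203), from a mean of 1.14 to 2.275 CPM. Hsf2bp, known in mouse for a role in meiotic recombination rather than heat shock, stood at 30.45, 26.2 and 23.92 CPM in Tet1KO and at 44.09, 44.43 and 40.25 in DKO (0.68 ± 0.0899, adjusted p = 7.15e-05).

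The same list in N1300T against Tet1KO had 3 of 8 genes higher and 1 lower, where 7.69% and 8.04% of all genes were, with a median of 0.16 against 0.0021 for all genes and 0.06 for the members. Ier5 stood at 5.842, 4.982 and 6.548 CPM in N1300T 49 and at 5.548, 6.273 and 6.726 in N1300T 81, above all Tet1KO libraries (0.56 ± 0.124, adjusted p = 0.00458 in edgeR's test). Hsf5 rose by 0.74 ± 0.177 (adjusted p = 0.00782) and lost its call in N1300T 81 alone (adjusted p = 0.0945) and without Tet1KO B. Hsf2bp was the gene that fell, by 0.59 on the log2 scale (adjusted p = 6.14e-05), and its preparations differed. It stood at 13.29, 11.51 and 12.34 CPM in N1300T 49 and at 24.36, 24.7 and 27.63 in N1300T 81, a difference of -1.04 (adjusted p = 7.62e-06), and N1300T 81 alone did not pass against Tet1KO (-0.07, adjusted p = 0.682). Against DKO, Hsf2bp was lower in N1300T by a log2 fold change of -1.27 (adjusted p = 1.08e-08) and Ier5 by -0.42 (adjusted p = 0.0481), the latter lost in 9 of 23 settings.

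The partners of HSP70 and HSP90 are read against 7.86% of all genes called higher and 7.12% lower in DKO, and 7.69% and 8.04% in N1300T. Among those of HSP70, 1 of 15 other HSP70, HSP110 and exchange factor genes was lower in DKO, Bag1 (-0.21, adjusted p = 0.0149), and none was higher (median -0.02). In N1300T 1 rose, Hspa2 (0.48, adjusted p = 0.00508), a testis-enriched HSP70, and 4 fell (median -0.0012), among them Hspa4l (-0.51, adjusted p = 0.0199) and Bag2 (-0.56, adjusted p = 0.023). Of 12 other J-domain genes none was called in DKO (median -0.04). In N1300T Dnajb6, a suppressor of aggregation, rose by 0.27 (adjusted p = 0.00152), and Dnajb4 (-0.58, adjusted p = 0.00563) and Dnaja2 (-0.18, adjusted p = 0.0401) fell, with a list median of -0.05.

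Against the same background, 2 of 16 HSP90 co-chaperones were lower in DKO (median -0.07), the immunophilins Fkbp4 and Fkbp5 that sit on steroid receptor complexes. Fkbp4 went from a mean of 892.8 to 706.3 CPM (-0.34 ± 0.0606, adjusted p = 0.00109 in edgeR's test) and Fkbp5 from 197.6 to 161.6 CPM (-0.29 ± 0.0581, adjusted p = 0.00255). Ahsa2, a relative of the HSP90 ATPase activator, was higher (0.27, adjusted p = 0.0184) and lost its call without DKO A, DKO C or Tet1KO A. In N1300T 1 of 16 was lower, Fkbp5 (-0.17, adjusted p = 0.0308), and the median was 0.0034. Of 14 genes of the CCT chaperonin and prefoldin, which fold actin and tubulin, 3 were lower in DKO, where 7.12% of all genes were, and 11 did not pass. The 3 were Pfdn2 (-0.31, adjusted p = 0.00254), Cct7 (-0.27, adjusted p = 0.00393) and Pfdn1 (-0.29, adjusted p = 0.0233), with a list median of -0.155. Log2 fold changes of all 14 ran from -0.31 to -0.02. In 11 of the 14 every DKO library lay below every Tet1KO library, as was so for 17.7% of all genes. None of the 14 was called by edgeR's test in N1300T against Tet1KO (median -0.06), and Pfdn2 was higher in N1300T than in DKO (0.26, adjusted p = 0.0127). In that last comparison the 14 ran from 0.03 to 0.27, and 13 were not called.

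The remaining lists are read against 15% of all genes called in DKO (7.86% higher, 7.12% lower) and 15.7% in N1300T (7.69% higher, 8.04% lower). Of 17 endoplasmic reticulum chaperone genes 1 was lower in DKO and in N1300T, Herpud1, at -0.45 (adjusted p = 0.0145) and -0.48 (adjusted p = 0.00328). Of 12 mitochondrial chaperones 1 was lower in each, Hspe1 in DKO (-0.26, adjusted p = 0.0493) and Hspa9 in N1300T (-0.15, adjusted p = 0.0461). Of 10 ubiquitin and aggregate clearance genes 1 was lower in each, the autophagosome protein Map1lc3b (-0.40, adjusted p = 0.000635, and -0.26, adjusted p = 0.00504). Of 5 tested other small heat shock genes none was called in DKO and Cryab was lower in N1300T (-0.87, adjusted p = 0.0441). Of 14 tested immediate early genes 4 were higher and 1 lower in DKO, with Btg2 at 0.38 (adjusted p = 0.0105), Zfp36 at 0.45 (adjusted p = 0.0127) and Fosl1 at 1.77 (adjusted p = 0.0195) the highest ranked by p. Without Tet1KO A none of the 14 was called higher in DKO. In N1300T none of the 14 was higher, and Jund (-0.29, adjusted p = 0.0157), Junb (-0.30, adjusted p = 0.0163) and Dusp1 (-0.36, adjusted p = 0.025) were lower. Against DKO, 8 of the 123 list genes (6.5%) were called in N1300T by edgeR's test, 2 higher and 6 lower, where 3.73% of all genes were. Besides Hsf2bp, Ier5 and Pfdn2 these were Atf3 (-1.12, adjusted p = 0.0138), Btg2 (-0.34, adjusted p = 0.023) and Zfp36 (-0.41, adjusted p = 0.0267). The others were Hspa4l (-0.63, adjusted p = 0.0172) and Sdf2l1 (0.29, adjusted p = 0.0481). Calls held in 20 of 23 settings for Atf3 and Hspa4l, 17 for Zfp36, 16 for Btg2 and 13 for Sdf2l1.

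Several list calls rested on single libraries. In DKO against Tet1KO the calls of Hsf2bp, Ier5, Hsf5, Fkbp4, Fkbp5, Pfdn2, Cct7 and Map1lc3b held in all 21 settings. Bag1 lost its call without DKO C (adjusted p = 0.0885), Btg2 without Tet1KO A (0.0548), Zfp36 without DKO A or Tet1KO A (up to 0.0842), and Fosl1 without DKO A, DKO B or Tet1KO A (up to 0.0935). Pfdn1 and Herpud1 each lost theirs without 4 libraries, DKO A, DKO C and Tet1KO A in both cases and Tet1KO C or Tet1KO B respectively, and Hspe1 in 9 of 21 settings. In N1300T against Tet1KO the calls of Ier5, Hspa2, Dnajb6 and Herpud1 held in all 23 settings. Map1lc3b lost its call without Tet1KO A (0.0545), Dnajb4 without Tet1KO C (0.0656), Hspa4l without Tet1KO C or with N1300T 49 alone (up to 0.0971), Jund without Tet1KO B or with N1300T 81 alone (up to 0.189), Junb without Tet1KO C or with N1300T 81 alone (up to 0.0699), and Bag2 without Tet1KO A or in either preparation alone (up to 0.175). Those of Dnaja2, Fkbp5, Cryab, Hspa9 and Dusp1 were lost in 5 to 13 of 23 settings.

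**Figure D5:**
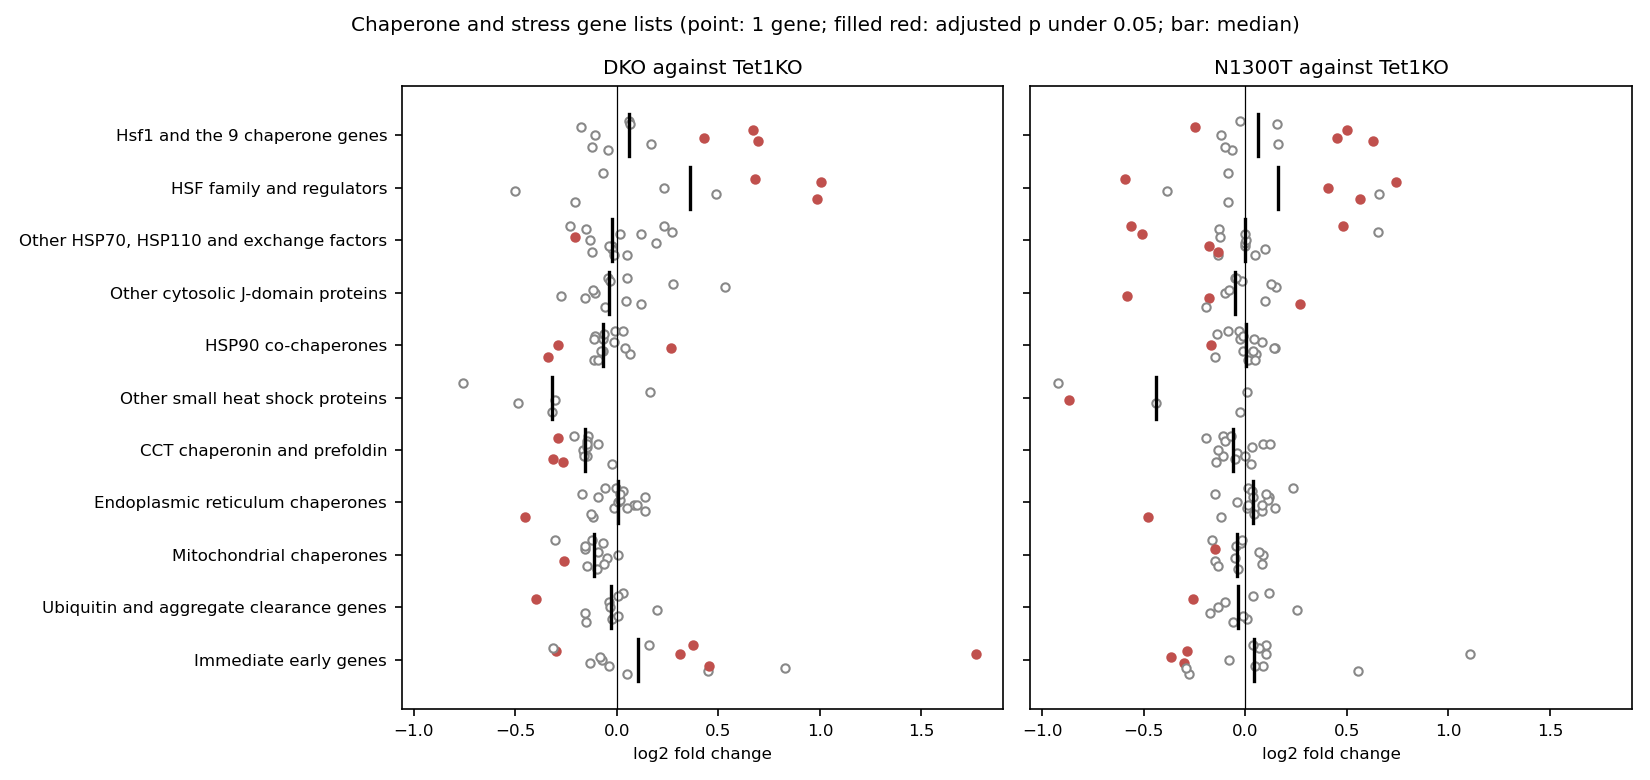
Log2 fold change against Tet1KO of each tested gene (points) of the members and 10 further lists (vertical axis), for DKO and for N1300T, with filled red points for an adjusted p under 0.05 and a bar at each list's median. Of the 123 list genes 18 are filled in DKO and 20 in N1300T, and the median of the CCT and prefoldin list lies at -0.155 in DKO.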

How the data were processed

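Raw read counts for 35976 gene symbols were taken from 1 table deposited by the authors, with no normalization applied. The build mm10 and the tool DESeq2 are named per the submitters' processing notes, and the sources used here do not give the aligner, counter, annotation or use of strand. Counts of 2 (20282 values) and 4 (9469) were more frequent than counts of 1 (5990) and 3 (3467), a pattern that counting both mates of a pair would give, so a fit with counts halved is among the alternatives.

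All comparisons came from 1 fit of 12 libraries with edgeR 4.0.16 in R 4.3.3: filterByExpr by group, TMM factors, quasi-likelihood tests, 2-sided, and Benjamini-Hochberg adjustment over 16014 genes, which held 99.97% of the counts. The fit had 8 residual and 9.11 prior degrees of freedom and a common biological coefficient of variation of 0.0859. N1300T is the mean of both preparations, and calls are at an adjusted p under 0.05. The z-scores and correlations were computed on log2 CPM (prior count 2). Code was tested on simulated data. The alternatives were DESeq2 1.42.0, other scalings and filters, other sets of libraries, a replicate block and halved counts. Further ones summed Hspa1a and Hspa1b or left out each library in turn. Leaving out a library outside the comparison reaches it only through the shared filter, scaling and estimate of spread.

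The genes, the lists and the alternatives were chosen with earlier results of these data known. Same-letter libraries of Tet1KO and N1300T deviated from their group means together (9 pairs, r 0.0662 to 0.312, 7 over 0.1) and those with DKO did not (9 pairs, r -0.0419 to 0.0366). None of 36 different-letter pairs was over 0.1. Deviations within a group cancel out, so high same-letter values push different-letter values down, and the latter are no separate evidence of pairing. Only N1300T 81 with Tet1KO had all 3 pairs over 0.1, so a block for that comparison was added after seeing the data. The labels do not say what a letter shares. Named genes were all members, up to 3 called genes of each list per comparison by adjusted p, Tet1, Tet2, and the 5 genes most like each pattern. Positions are those of RefSeq in GRCm38.p6, and exon lengths are from GENCODE.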

Additional observations from a re-analysis of the deposited data

Results flagged for a closer look

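Hsp90ab1 in N1300T 49 B stood apart from the other N1300T libraries, at 7460 CPM where the next highest N1300T library had 6930. The gap was 0.725 of the range of the 6 libraries, above the critical value of 0.625 in Dixon's test for 6 values. Chance alone sets a sample apart in this way in about 1 of 20 groups, and each of the 10 genes was tested. No cause was tested.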

How the results depend on the processing

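Of the called members, Hsph1 in both comparisons with Tet1KO and Hspa1b in DKO kept their calls in all settings run. Those of Hspa1a in both comparisons, and of Hsp90aa1 and Hspa1b in N1300T, were lost in some settings, as given above. A fit without 1 library has fewer values, so a lost call alone does not show that the difference rested on that library. Without DKO A or DKO C, Hspa1a lost its call in DKO at 0.74 and 0.75, above the 0.70 of the main fit. The cause of the lost calls was not tested. The replicate letters met the criterion for pairing in N1300T 81 with Tet1KO and not in the other pairs of groups. With the replicate block the count of called members was as before in all 4 comparisons, whereas the genes called rose from 597 to 1497 in N1300T against DKO and from 58 to 105 between preparations. Against Tet1KO they rose from 2520 to 3323 in N1300T and from 2399 to 3281 in DKO, so the background of the member counts rose as well. For N1300T 81 against Tet1KO the block left 3 members called in the fit of 12 libraries and gave 4, with Bag3 added, in that of Tet1KO and N1300T, where the genes called rose from 1951 to 3247. It changed no other member's call. The counts of genes called in N1300T against DKO and between preparations were 1481 and 244 with no filter and 1088 and 108 with DESeq2. Against DKO, 366 genes were called for N1300T 49 alone and 379 for N1300T 81 alone. The members called in N1300T against Tet1KO were 4, and 2 with N1300T 49 alone. With 1 library left out the genes called ran from 1386 to 2575 in DKO against Tet1KO, from 1388 to 2575 in N1300T against Tet1KO and from 107 to 1053 in N1300T against DKO, and the members called in N1300T against Tet1KO from 1 to 5. The low ends came without Tet1KO A, Tet1KO A, DKO C and Tet1KO A. Differences that were not called and changed sign lay near 0. In N1300T against DKO these were Hsph1 (-0.012) and Hsp90ab1 (-0.0096) when scaled by library size alone, and Hsp90ab1 (-0.0026) and Bag3 (0.056) with N1300T 81 alone. Between preparations, Hspa8 was -0.010 by library size alone and -0.0029 with counts halved. With 1 library left out, log2 fold changes ran between these limits. In N1300T against DKO they were -0.052 and 0.043 for Bag3, -0.030 and 0.0044 for Dnajb1, -0.12 and 0.033 for Hspa1a, and -0.0065 and 0.067 for Hsph1. Between preparations they were -0.056 and 0.0051 for Dnajb1, -0.093 and 0.017 for Hsf1, -0.043 and 0.13 for Hsp90aa1, -0.079 and 0.11 for Hspa1a, -0.062 and 0.15 for Hspa1b, -0.032 and 0.050 for Hspa8, -0.023 and 0.13 for Hspb1, and -0.11 and 0.034 for Hsph1. Against Tet1KO they were -0.074 and 0.012 for Hsf1 in N1300T, -0.074 and 0.011 for Hspa8 in DKO, and -0.071 and 0.18 for Hspb1 in DKO. Depth limits Hspa1a most, with 30 to 116 counts per library.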
